A study of Mus musculus with 9 samples.

Results

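Levels of 4 resistin-like and chitinase-like genes, *Retnla*, *Retnlg*, *Chil3* and *Chil1*, were described by RNA sequencing in peritoneal macrophages (PMs) and in CD11b- and CD11b+ B cells of the bone marrow (BM). These were 4 of the 55322 genes listed, and they were chosen on their levels in these same 3 groups, so the levels are given as a description and were not tested. All mice were wild type C57BL/6. PMs were sorted as CD11b+F4/80+ cells from naive mice, which received no treatment. Both B cell groups came from the BM of mice injected intraperitoneally with lipopolysaccharide (LPS, a bacterial cell wall component that induces sepsis-like inflammation) at 5 mg/kg and taken 48 h later. Before the B cells were sorted by CD11b, the BM was depleted with antibodies of T cells, NK cells, erythroid cells and Gr-1+ cells, and Gr-1 is a surface marker of neutrophils. Each group had 3 libraries, and the error convention in the study's methods marks them as biological replicates. No source used here states which mice each library came from, so p-values are given for the spread between libraries. PMs and B cells differed in cell type, tissue and LPS treatment at once, and these cannot be told apart.

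*Retnla* and *Retnlg* encode resistin-like molecules, small secreted proteins, of which the *Retnla* product is a hallmark of macrophages stimulated with IL-4 or IL-13. *Chil3* and *Chil1* encode secreted chitinase-like proteins, which bind sugar polymers but do not cut chitin. Of these, *Chil3* (Ym1) is made by alternatively activated macrophages and by neutrophil precursors of the BM. IL-4 and IL-13 act through a receptor that contains *Il4ra* and through the transcription factor *Stat6*.

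Expression is given as FPKM, the fragments on a gene scaled to its exon length and to the reads of the library. The libraries held from 18014658 to 35251215 reads on genes. The summed FPKM of 8 B cell markers was 5717 to 5940 in CD11b- libraries, 4251 to 4845 in CD11b+ libraries and 50.4 to 79.0 in PMs. *Itgam*, which encodes CD11b, was at 251.4 to 358 FPKM in PMs, and its level of 1.31 to 1.92 in CD11b+ libraries exceeded the 0.251 to 0.869 of CD11b- libraries, so the order of the labels held in every library. The summed FPKM of 17 neutrophil markers was 214 to 284 in PMs, 2.07 to 3.31 in CD11b- libraries and 210 to 1593 in CD11b+ libraries. Most of the PM sum was *Prtn3* (121 to 215 FPKM) and *Csf3r* (50.1 to 75.9). Without these 2, left out after their values were seen, the other 15 markers summed to 18.5 to 30.0 in PMs, 1.79 to 3.07 in CD11b- libraries and 209 to 1587 in CD11b+ libraries, and *Ly6g* had 0 reads in PMs. In CD11b+ against CD11b- libraries the summed FPKM was 35.6 to 53.8 against 11.99 to 20.4 for 9 monocyte markers, 1.93 to 2.93 against 0.0206 to 0.164 for 6 basophil and mast cell markers, 15.9 to 25.4 against 12.5 to 17.3 for 7 eosinophil markers, 0.150 to 0.863 against 0 to 0.168 for 4 T cell markers and 27.6 to 38.9 against 1.199 to 21.2 for 4 erythroid markers. Of the eosinophil markers *Il5ra* was at 11.1 to 13.7 against 10.5 to 16.9, and *Prg2* was at 3.94, 3.602 and 13.7 against 0 to 1.97, so that in CD11b+ replicate 3 *Prg2* was the larger part of the sum. The monocyte sums were mostly *Ly6c2*, at 26.4 to 46.1 against 10.1 to 19.2, while *Csf1r* was at 1.36 to 3.56 against 0.130 to 0.223.

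On GRCm38 with the GENCODE annotation, *Retnla* (ENSMUSG00000061100) was on the plus strand at chr16:48842551-48844461 and *Retnlg* (ENSMUSG00000022651) at chr16:48872621-48874496, with 28159 bases between them. *Chil3* (ENSMUSG00000040809) was on the minus strand at chr3:106147554-106167564, and its paralog *Chil4* began 33925 bases beyond it. *Chil1* (ENSMUSG00000064246) was on the plus strand at chr1:134182176-134190181. No other annotated gene overlapped any of the 4.

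The sequences before the starts of *Retnla* and *Retnlg* are shown because these neighbours each held a match to the same motif and had their highest levels in different groups. Capitals mark matches to 3 motifs searched on both strands of the 250 bases before the RefSeq start: TTC and GAA with 4 bases between them, which STAT6 binds, TTGCNNAA for C/EBP factors, and GAGGAAG for PU.1. The *Retnla* entry is chr16:48842359-48842550 and the *Retnlg* entry is chr16:48872358-48872607, both on the plus strand of GRCm38.p6 from RefSeq, 5′ to 3′, without bases inside the GENCODE gene.
Retnla: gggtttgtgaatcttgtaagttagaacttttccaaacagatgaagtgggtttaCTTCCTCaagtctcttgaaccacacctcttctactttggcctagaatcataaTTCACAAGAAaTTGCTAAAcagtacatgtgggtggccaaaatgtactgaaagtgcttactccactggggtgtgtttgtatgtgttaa
Retnlg: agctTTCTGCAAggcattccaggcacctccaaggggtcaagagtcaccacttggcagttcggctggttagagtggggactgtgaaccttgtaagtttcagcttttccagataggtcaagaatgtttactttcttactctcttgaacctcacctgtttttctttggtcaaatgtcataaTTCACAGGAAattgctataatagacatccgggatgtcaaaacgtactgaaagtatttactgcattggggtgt
Aligned over the whole 250-base windows, 138 bases were identical, 37 differed and 150 lay in gaps, an identity of 78.9% of the aligned bases. Windows of genes from different families had 54.9% to 68.3% by the same measure, with up to 136 identical bases. Each held 1 match to the STAT6 motif, at chr16:48842464-48842473 and chr16:48872536-48872545, which began 87 and 85 bases before the GENCODE starts of *Retnla* and *Retnlg*. In *Retnla* a match to the C/EBP motif followed at chr16:48842475-48842482, and a match to the PU.1 motif lay upstream at chr16:48842412-48842418. In *Retnlg* the C/EBP match was far upstream, at chr16:48872362-48872369. Of 32851 promoter windows of this length, 5.85% held the STAT6 motif, 9.56% the C/EBP motif, 10.6% the PU.1 motif and 0.609% both the STAT6 and the C/EBP motif. These are matches of letters and not measured binding.

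The windows before *Chil3* and *Chil4* are shown because these paralogs had similar windows, while *Chil4* had from 0 to 3 reads in every library. The *Chil3* entry is chr3:106167565-106167814 and the *Chil4* entry is chr3:106219508-106219729, both on the minus strand of GRCm38.p6 from RefSeq, 5′ to 3′.
Chil3: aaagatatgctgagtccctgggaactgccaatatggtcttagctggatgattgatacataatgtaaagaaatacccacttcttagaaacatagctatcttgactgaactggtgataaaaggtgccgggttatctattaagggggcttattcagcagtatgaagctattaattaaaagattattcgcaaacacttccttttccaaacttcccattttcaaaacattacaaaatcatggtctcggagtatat
Chil4: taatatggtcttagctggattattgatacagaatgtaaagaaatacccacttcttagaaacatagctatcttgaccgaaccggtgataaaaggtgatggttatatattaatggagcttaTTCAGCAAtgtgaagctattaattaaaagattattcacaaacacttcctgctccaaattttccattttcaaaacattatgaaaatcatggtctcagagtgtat
Over the 250-base windows 201 bases were identical, 20 differed and 58 lay in gaps, an identity of 91.0% of the aligned bases. The *Chil3* window held none of the 3 motifs and the *Chil4* window held 1 C/EBP match, in capitals. The *Chil1* window held none of the 3 motifs.

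*Retnla* was among the most abundant transcripts of PMs. Its FPKM was 6247, 7557 and 3808 in the 3 PM libraries, where it ranked 8th, 5th and 11th of all genes. It was 4.75, 4.31 and 6.15 in CD11b- B cells and 8.30, 5.23 and 5.45 in CD11b+ B cells. All 3 PM libraries stood far above all 6 B cell libraries, and the 2 B cell groups overlapped. The means were 5871 ± 1902 (SD, n = 3) in PMs, 5.07 ± 0.960 in CD11b- B cells and 6.32 ± 1.71 in CD11b+ B cells. On the scale of log2(FPKM + 1), CD11b+ B cells were below PMs by a difference of -9.61 (SE 0.30) and CD11b- B cells by -9.87 (SE 0.27), and the 2 B cell groups differed by 0.26 (SE 0.23).

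*Chil3* varied widely among the CD11b+ libraries. Its FPKM was 6.39, 21.9 and 15.97 in PMs, 0.0734, 0.0878 and 0.0765 in CD11b- B cells, and 42.7, 63.5 and 4.54 in CD11b+ B cells. The CD11b- libraries, with 4 or 5 reads each, were below every library of the other groups, whereas the third CD11b+ library fell below the 3 PM libraries and the other 2 were above them. The means were 14.8 ± 7.84 (SD, n = 3), 0.0792 ± 0.00757 and 36.9 ± 29.9 in the same order, so CD11b+ B cells and PMs differed by less than the SD of the CD11b+ libraries. The CD11b+ mean was 23.6 FPKM without replicate 2, 34.0 without replicate 1 and 53.1 without replicate 3. The log2 difference was 4.53 (SE 0.80) between CD11b+ and CD11b- B cells, 0.81 (SE 0.87) between CD11b+ B cells and PMs, and -3.72 (SE 0.43) between CD11b- B cells and PMs. Summed over libraries, the CD11b+ reads of *Chil3* were 427 times the CD11b- reads per read on genes, with an exact 95% interval of 249.4 to 802 that covers counting error only.

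*Retnlg* was seen in all CD11b+ libraries and hardly elsewhere. Its FPKM was 13.9, 18.6 and 10.2 in CD11b+ B cells, which was 242, 289 and 213 reads. CD11b- B cells had 0, 0 and 1 read, and PMs had 0, 0 and 66 reads, the last of which was 5.52 FPKM. Every CD11b+ library was above every library of the other 2 groups, and a single PM library held all the PM reads. The mean was 14.2 ± 4.23 FPKM (SD, n = 3) in CD11b+ B cells, and it stayed between 12.04 and 16.3 when any 1 library was left out. Per read on genes, the CD11b+ reads were 822 times the CD11b- reads, with a counting interval of 147 to 32513 set by that single read. The log2 difference was 3.87 (SE 0.27) against CD11b- B cells and 2.99 (SE 0.70) against PMs, and that of CD11b- B cells against PMs was -0.88 (SE 0.68).

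*Chil1* was low throughout. Its FPKM was 0.644, 2.83 and 0.0304 in CD11b+ B cells, from 53, 208 and 3 reads. It was 0.139, 0.0488 and 0.0707 in PMs, from 7, 4 and 4 reads, and CD11b- B cells had 0, 0 and 2 reads. The CD11b+ libraries were all above the CD11b- libraries, but the third was below all PMs. The CD11b+ mean of 1.17 ± 1.47 FPKM (SD, n = 3) was 0.337 without replicate 2 and 1.74 without replicate 3. Per read on genes, CD11b+ B cells had 146 times the *Chil1* reads of CD11b- B cells, with a counting interval of 40.0 to 1211. The log2 difference was 0.89 (SE 0.42) between these groups and 0.78 (SE 0.43) between CD11b+ B cells and PMs.

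**Figure D1:**
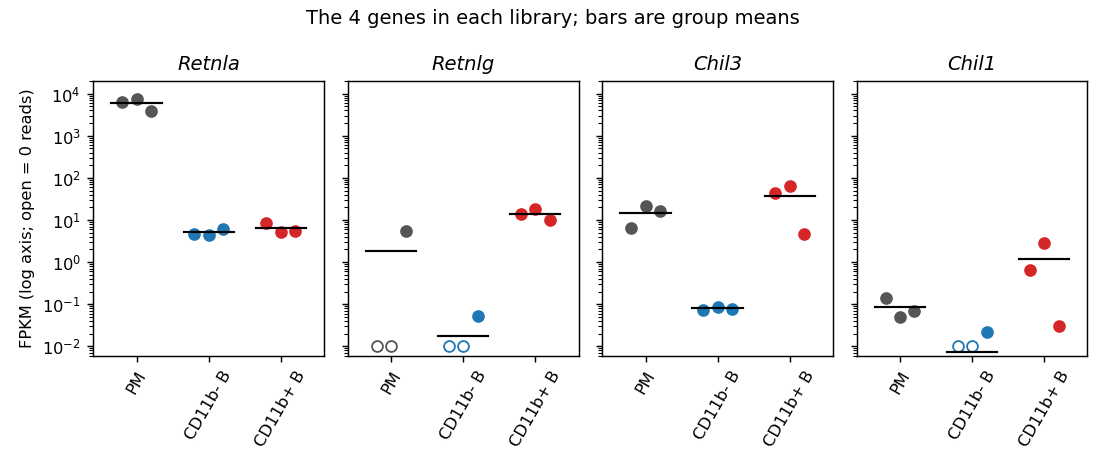
FPKM of the 4 genes (log axis) in each of the 3 libraries of PMs, CD11b- B cells and CD11b+ B cells; filled points are libraries, open points at the bottom are libraries with 0 reads, and bars are group means. *Retnla* sits highest in PMs, whereas *Retnlg*, *Chil3* and *Chil1* have their highest means in CD11b+ B cells.

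Among the 4 genes, *Retnlg*, *Chil3* and *Chil1* lay higher in every CD11b+ than in every CD11b- library, which was true of 8.63% of the 21778 genes tested. Against PMs, CD11b+ B cells were without overlap higher for 1 of the 4 genes (*Retnlg*; 34.3% of genes tested) and lower for 1 (*Retnla*; 12.4%). CD11b- B cells were lower than PMs without overlap for 3 of the 4, all but *Retnlg* (15.2% of genes tested, among which *Chil1* was not, since its mean was under the filter of 0.05 FPKM), and higher for 0 of the 4 (36.1%). Because these comparisons were used to choose the genes, nothing is read from the counts.

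The groups also differed in which of the 4 genes predominated. *Retnla* made up 99.4% to 99.9% of the summed FPKM of the 4 genes in PMs and 97.6% to 98.5% in CD11b- B cells, with *Chil3* next in all 6 libraries. In CD11b+ B cells *Retnla* was 12.7%, 5.80% and 27.0% of the sum. There *Chil3* was 65.2% and 70.4% in the first 2 libraries and 22.5% in the third, in which *Retnlg* was highest at 50.4%. The sum was 3830 to 7579 FPKM in PMs, 4.39 to 6.30 in CD11b- libraries and 20.2 to 90.2 in CD11b+ libraries, of which none had *Retnla* as the highest of the 4.

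**Figure D2:**
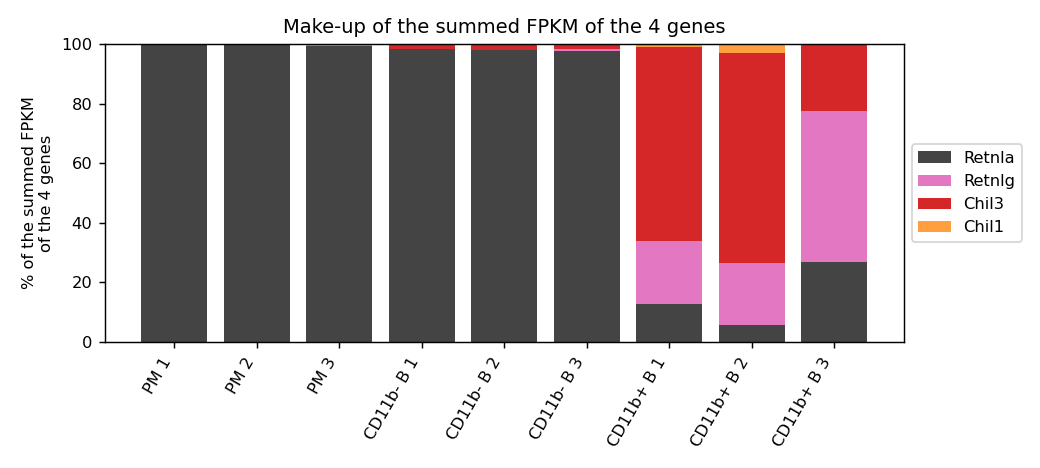
Share of each of the 4 genes in their summed FPKM (percent, vertical axis from 0 to 100) in each library. *Retnla* takes at least 97.6% of the sum in PMs and CD11b- B cells and at most 27.0% in CD11b+ B cells.

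*Retnlg*, *Chil3* and *Chil1* followed the same order over the CD11b+ libraries as most neutrophil markers. They were highest in replicate 2, then 1, then 3, as were 12 of 17 neutrophil markers and 18.9% of the 12143 genes with a mean of at least 1 FPKM in CD11b+ B cells. The markers *Elane*, *Mpo*, *Prtn3* and *Ctsg* were instead highest in replicate 1, at 126% to 618% of replicate 2, and *Ly6g* was lowest in replicate 1. All 17 markers had a higher mean in the CD11b+ group than in the CD11b- group, 14 of them without overlap, and none was listed at 0 in all CD11b+ libraries. The neutrophil marker *Ly6g*, whose product carries part of the Gr-1 epitope, was at 1.34, 2.51 and 1.96 FPKM in them. The granule protein gene *Ngp* and the calcium-binding protein genes *S100a8* and *S100a9* were much higher, with *S100a9* at 221, 545 and 74.5 FPKM and *Ngp* at 135, 340 and 24.1.

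The 3 genes differed in how far they fell in replicate 3. *Chil3* in replicate 3 was 7.14% of its level in replicate 2, beside a median of 7.10% for the 17 markers, and *Chil1* was 1.07%. *Retnlg* was 54.7%, a share that only *Ly6g* exceeded among the markers, at 77.8%. *Retnla* was highest in replicate 1, and its replicate 3 value was 104% of replicate 2. In PMs, where replicate 3 held the *Retnlg* reads, the summed FPKM of the 17 markers was lowest in replicate 3, at 214 against 276 and 284. Without *Prtn3* and *Csf3r* the sum was highest there, at 30.0 against 22.6 and 18.5. Of the 16 markers with reads in PMs, 6, 3 and 7 were highest in replicates 1, 2 and 3. Markers highest in replicate 3 included *S100a9*, at 7.02 FPKM against 0.744 and 0.721, and *Elane*, at 0.755 against 0.113 and 0. The part of neutrophil and monocyte RNA in these levels was not tested, and in bulk samples fewer cells of a type and less RNA per cell cannot be told apart.

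**Figure D3:**
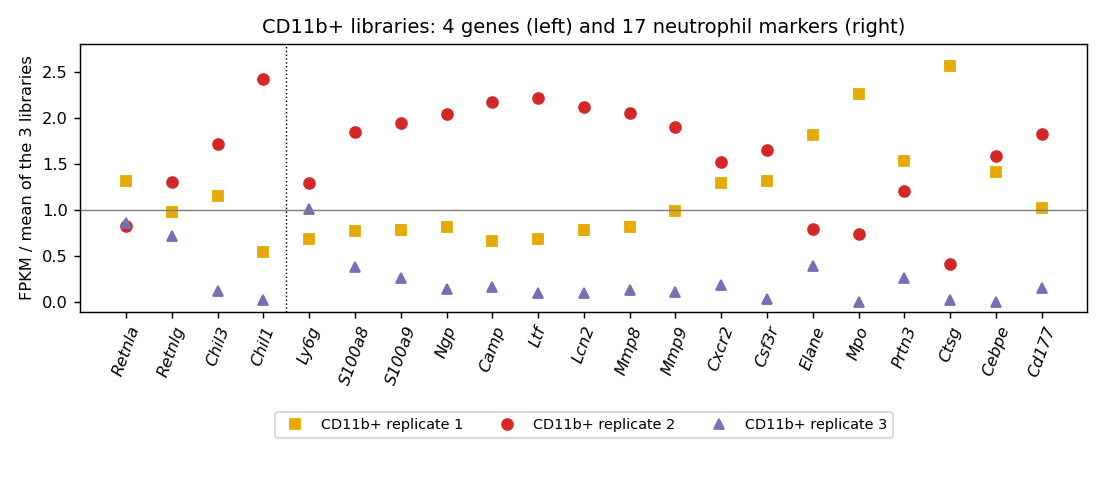
FPKM in each CD11b+ library divided by the mean of the 3 CD11b+ libraries, for the 4 genes on the left and 17 neutrophil markers on the right; symbols are replicates and the line at 1 is the mean. Replicate 3 is lowest for *Retnlg*, *Chil3*, *Chil1* and 16 of the 17 markers, but *Retnlg* lies closer to 1 than *Chil3* and *Chil1*.

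*Retnla* in B cells was a small share of its PM level, as were macrophage markers. *Retnla* was at 0.0863% of the PM mean in CD11b- B cells and at 0.108% in CD11b+ B cells. The 11 markers of peritoneal macrophages had a median of 0.0980% in CD11b- and 0.434% in CD11b+ B cells, with a range from 0.0662% to 11.03% and from 0.120% to 9.72%, the upper end of both being the adhesion molecule *Icam2*. Their summed FPKM was 10538 to 14194 in PMs, 74.5 to 94.8 in the CD11b- group and 106 to 120 in the CD11b+ group, and none was listed at 0 in all libraries of a group. *Prg4*, a lubricating glycoprotein of these macrophages, was at 0.0963% and 0.120%. The ratio of the CD11b+ to the CD11b- mean was 1.25 for *Retnla* and 1.24 for *Prg4*. Over the 11 markers this ratio ran from 0.881 (*Icam2*) to 9.05 (*Marco*), with a median of 3.12. The complement genes *C1qa*, *C1qb* and *C1qc* were at 4.68, 4.79 and 4.03. The part of macrophage RNA in the *Retnla* level of B cells was not tested.

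**Figure D4:**
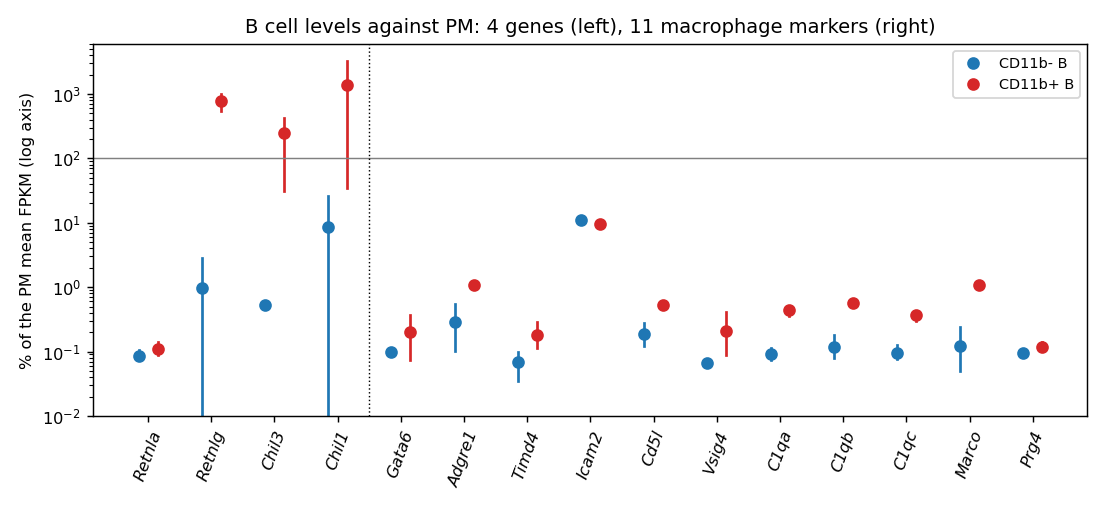
Level in CD11b- and CD11b+ B cells as a percentage of the PM mean FPKM (log axis), for the 4 genes on the left and 11 peritoneal macrophage markers on the right; points are means and lines run from the lowest to the highest library, with values of 0 drawn to the lower edge. *Retnla* lies at 0.0863% in CD11b- and 0.108% in CD11b+ B cells, whereas the CD11b+ means of *Retnlg*, *Chil3* and *Chil1* exceed the PM mean.

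Because featureCounts assigns reads by position, the similarity of paralog transcripts bears on the values. The *Retnla* and *Retnlg* transcripts were 84.5% identical over aligned bases and shared 31 of the 569 stretches of 31 bases in *Retnla*, with a longest shared run of 49 bases. PM replicates 1, 2 and 3 held 0, 0 and 66 *Retnlg* reads beside 67408, 132215 and 46036 *Retnla* reads. Whether reads of one were assigned to the other was not tested. *Chil3* and *Chil4* transcripts were 94.4% identical and shared 470 of 1629 stretches, with a longest run of 136 bases, so the count of *Chil3* is uncertain in these stretches. *Chil4* had at most 3 reads in any library. *Chil1* shared no such stretch with *Chit1*, *Chil3* or *Chia1*.

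For the 3 genes whose log2(FPKM + 1) spanned at least 2 over the 9 libraries, the genes with the most alike patterns were found by the mean absolute difference of centred log2(FPKM + 1) over these libraries, among 14211 other genes. For *Retnla* they were the lipoxygenase *Alox15* (0.17), *Prg4* (0.22) and the chemokine *Pf4* (0.29). For *Chil3* they were *Lcn2* (0.88), *Cd177* (0.90) and *Mmp9* (1.18), which are all on the neutrophil list. For *Retnlg* they were the neutrophil elastase gene *Elane* (0.64), *Ly6a2* (0.69) and the immunoglobulin constant gene *Ighg2c* (0.70). The likeness was thus much closer for *Retnla* than for *Chil3* and *Retnlg*, and it is a description over libraries that differ mainly by group. Over the CD11b+ libraries alone, *Lcn2*, *Cd177* and *Mmp9* had the order of *Chil3*. *Elane* (19.5, 8.54 and 4.21 FPKM), *Ly6a2* (13.1, 7.37 and 12.9) and *Ighg2c* (14.9, 29.6 and 37.1) did not have the order of *Retnlg* there.

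Other genes of alternative activation were described by 67 related genes in 5 lists, compared with limma on log2(FPKM + 1) with Benjamini-Hochberg adjustment over all genes tested. Between CD11b+ and CD11b- B cells, 0 of 56 tested related genes passed an adjusted p of 0.05 with limma, where 0.0689% of all genes did. An unadjusted p under 0.05 by limma was found for 8 of the 56, a larger share than the 7.68% of all genes. The lists were chosen with earlier results of these data known. The median difference of the 56 was 0.10, against 0.03 over all genes. edgeR on whole reads also called 0 of 46, against 0.269% of all genes. It gave an unadjusted p under 0.05 for 10 of the 46, a larger share than the 9.32% of all genes. DESeq2 called 4 of 61, against 1.73% of all genes, namely *Cd163*, *Clec7a*, *Il1rn* and *Pycr1*, which are named here after their values were seen. Of these, *Pycr1*, a proline synthesis enzyme, was at 1.99 ± 0.692 FPKM (SD, n = 3) in CD11b+ and 0.331 ± 0.126 in CD11b- B cells. The 3 CD11b+ libraries of *Il1rn* (0.166, 0.138 and 0.328 FPKM) were also all above the CD11b- libraries, whereas *Cd163* (0.374, 0.280 and 0.00519) and *Clec7a* (0.478, 2.26 and 0.0323) were within the CD11b- range in CD11b+ replicate 3.

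Against PMs, CD11b+ B cells had 16 related genes higher and 18 lower of 57 tested, and CD11b- B cells 16 higher and 21 lower of 59 tested, where 30.3% and 36.7% of all genes passed in either direction. Both comparisons used the same PM libraries. The median differences were 0.18 and 0.00 for the related genes and 0.25 and 0.24 over all genes tested. Median-ratio scaling lowered the latter to 0.13 and 0.07, and it turned the related counts into 12 higher and 22 lower, and 10 higher and 22 lower. Over all genes the counts were 4760 higher and 1940 lower, and 5404 higher and 2306 lower, which became 2922 and 2566, and 3411 and 3088, with that scaling.

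Of the family relatives, *Retnlb*, *Chit1*, *Chil4* and *Chil6* had at most 6 reads in any library, and limma tested 4 of the 9 relatives in CD11b+ and 5 in CD11b- B cells against PMs and called 1 in each. edgeR and DESeq2 each called 2 lower in both comparisons, the second being *Chid1*, whose limma differences were -0.31 and -0.48 (adjusted p = 0.417 and 0.227). The gene called by limma was *Ctbs*, a lysosomal chitobiase, which was lower in CD11b+ (0.936 ± 0.173 FPKM) and CD11b- B cells (1.17 ± 0.779) than in PMs (3.83 ± 0.705), with adjusted p of 0.0116 and 0.0295 by limma. The CD11b- call was lost without the filter on FPKM and without PM replicates 1 or 3 or CD11b- replicates 2 or 3.

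Of 22 genes of arginine and polyamine metabolism, of which 20 were tested, CD11b+ B cells had 9 higher and 3 lower than PMs, and CD11b- B cells 7 higher and 5 lower. With median-ratio scaling these became 6 higher and 6 lower, and 4 higher and 6 lower, of 19 tested, so the excess of higher calls was not kept. Over all genes called, the share that was higher also fell with that scaling, from 71.0% to 53.2% in CD11b+ and from 70.1% to 52.5% in CD11b- B cells. *Slc7a2*, a cationic amino acid transporter that brings arginine into the cell, was at 11.7 ± 2.10 FPKM (SD, n = 3) in PMs and at 0.0185 and 0.0152 in the CD11b+ and CD11b- groups, with log2 differences of -3.63 in both (adjusted p = 5.39e-05 and 3.93e-05). *Smox*, which oxidises spermine, was also lower, by -2.06 and -2.18 (adjusted p = 0.0211 and 0.0120). The polyamine acetylase *Sat1* was lower by -0.91 and -0.93 (adjusted p = 0.00650 and 0.00543). The transporter *Slc7a7* was lower in CD11b- B cells by -1.50 (adjusted p = 0.00972), and its difference in CD11b+ B cells was -0.99 (adjusted p = 0.0657), which was called in 7 of 17 alternatives, edgeR, DESeq2 and both scalings among them.

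The genes of this list with the largest rise, by limma, act in arginine, proline and polyamine synthesis. *Ass1*, which makes the precursor of arginine, was higher than in PMs by 3.06 in CD11b+ and 2.18 in CD11b- B cells, with means of 11.2 ± 3.47 and 5.52 ± 1.38 FPKM against 0.481 ± 0.579. Spermine synthase *Sms* was higher by 2.69 and 2.47, and *Aldh18a1*, which starts proline and ornithine synthesis from glutamate, by 2.41 and 2.51. The adjusted p of these 6 differences ran from 0.000140 to 0.00540 by limma. *Smox* lost its call in CD11b+ B cells without the filter on FPKM and when any 1 library other than PM replicate 1 was left out, and in CD11b- B cells without CD11b- replicate 1 or 2.

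Of 17 genes of IL-4 and IL-13 signalling, of which 15 were tested, CD11b+ B cells had 6 higher and 3 lower than PMs, and CD11b- B cells 7 and 3, which became 5 and 3 in both with median-ratio scaling. The genes higher in B cells included receptor and kinase genes that lymphocytes use. The common gamma chain *Il2rg* was higher by 2.56 and 2.62 and its kinase *Jak3* by 2.62 and 2.61, and *Il4ra* was at 42.2 ± 7.27 and 60.9 ± 6.43 FPKM against 11.9 ± 1.65 in PMs (differences 1.74 and 2.27, adjusted p = 0.000509 and 5.76e-05). The feedback inhibitor *Socs1* was higher by 1.93 and 1.81 (adjusted p = 0.00353 and 0.0262). Its CD11b- values were 1.97, 2.72 and 9.77 FPKM, and the CD11b- call was lost in 6 of 17 alternatives, among them both scalings, no filter on FPKM, and leaving out PM replicate 1, PM replicate 2 or CD11b- replicate 2. The lower genes were the same in both groups. They were the IL-13 receptor chain *Il13ra1* (-2.76 and -3.20) and 2 transcription factors of macrophage activation, *Klf4* (-3.70 and -4.24) and *Cebpb* (-4.92 and -5.01). *Cebpb*, a member of the family whose motif was searched above, was at 37.4 ± 22.2 FPKM in PMs, 0.0780 in CD11b- and 0.145 in CD11b+ B cells. *Il13* was listed at 0 in all 9 libraries.

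Of 14 other alternative activation genes, all tested, CD11b+ B cells had 9 lower and 1 higher than PMs, and CD11b- B cells 10 lower and 1 higher. Over all genes tested, CD11b+ B cells had 1940 lower and 4760 higher of 22102, and CD11b- B cells 2306 lower and 5404 higher of 20985. The chemokine *Ccl24* was at 209 ± 28.0 FPKM in PMs and at 0.241 and 0.149 in CD11b+ and CD11b- B cells, with log2 differences of -7.40 and -7.51. The scavenger receptor *Msr1* was lower by -6.64 and -6.91, the lectin *Clec10a* by -4.58 and -4.74 and the lectin *Clec7a* by -4.50 and -5.25. The largest adjusted p of these was 0.000147 by limma. *Pdcd1lg2*, which encodes the checkpoint ligand PD-L2, was the one gene higher in B cells, by 1.93 and 1.30, a call that was lost with edgeR in both comparisons and with DESeq2 in the second. *Retnla* had the same direction as *Ccl24* and *Msr1*. In CD11b+ B cells *Retnlg* had the opposite one, while *Chil3* and *Chil1* overlapped with PMs. Of all genes tested there, 15001 of 22102 had a higher mean log2 level than in PMs. The 4 genes were chosen on these groups, so nothing is read from their directions.

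Of 5 receptors and binding partners, *Tmem219*, a partner of the receptor for chitinase-like proteins, was lower by -1.19 and -1.12, and *Cd44* by -1.40 and -1.68. *Cap1*, a reported resistin receptor, was higher in CD11b- B cells by 0.67 (adjusted p = 0.0350), a call lost in 11 of the alternatives, among them both scalings, and its difference in CD11b+ B cells was 0.31 (adjusted p = 0.363).

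**Figure D5:**
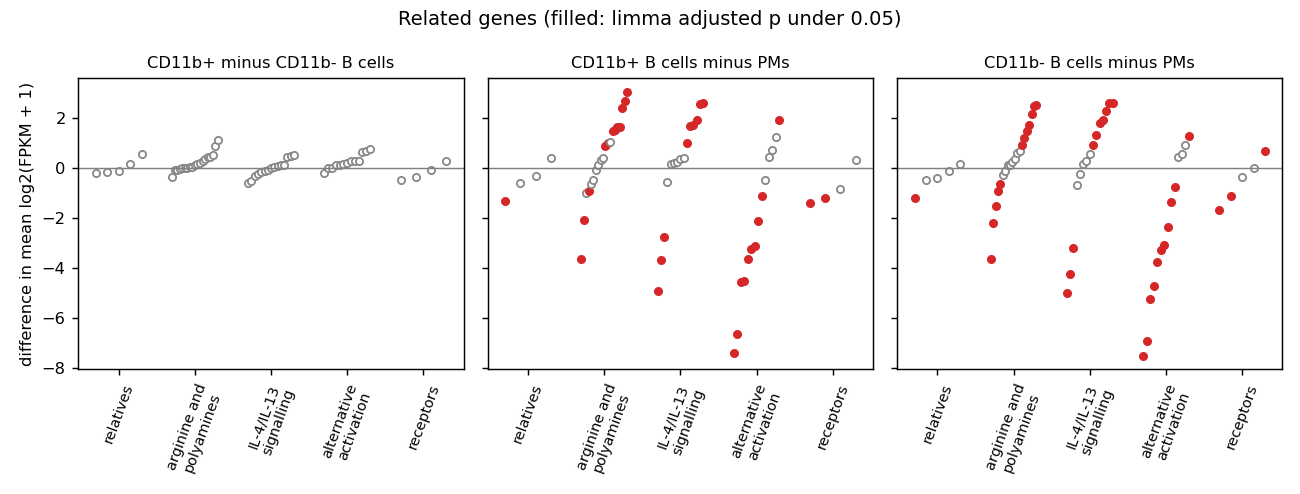
Difference in mean log2(FPKM + 1) of each tested related gene, in 5 lists along the horizontal axis and 1 comparison per panel; filled points passed a limma adjusted p of 0.05. No point is filled between the B cell groups, and alternative activation genes reach down to -7.51 against PMs.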

How the data were processed

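Total RNA was converted to cDNA with a SMART-seq HT kit and sequenced on a DNBSEQ instrument by the study. Per the submitters' processing notes and the methods, the authors trimmed reads with Trim Galore (0.4.4), Trimmomatic (0.36) and cutadapt (1.16), mapped them with STAR (2.7.2b) and counted them on genes with featureCounts (1.6.1). The methods name GRCm38, the notes list GRCm38 and GRCm39, and gene positions in the FPKM table differ from GENCODE on GRCm38, so positions were taken from GENCODE by gene identifier. The deposited FPKM table lists 55322 genes. A second deposited table holds read counts divided by size factors, a normalized signal, for 11063 genes. Whole reads were recovered from FPKM and gene length, and 100% of values under 1000 reads came out whole within 0.05 reads. No setting for strand or shared reads is given in the sources used here. The 4 genes and the related and marker lists were chosen with earlier results of these data known. Differences were fitted by limma (3.58.1) with a trend on log2(FPKM + 1), which understates changes of low genes, for genes with a mean of at least 0.05 FPKM in the libraries compared. *Chil1* was below that filter in CD11b- B cells against PMs. Alternatives used edgeR (4.0.16) and DESeq2 (1.42.0) on whole reads. The named genes were the 4, up to 3 called genes of largest change per list, comparison and direction, and the 3 nearest patterns. RefSeq promoters were matched for all 4 genes by symbol. Some genes of the lists and 1 of the rule are not reported here. Scripts were tested on simulated data.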

Additional observations from a re-analysis of the deposited data

How the results depend on the processing

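All 11 fitted differences of the 4 genes kept their sign in 189 alternative values, of which 157 moved by less than 1 SD between libraries and 32 by more. For CD11b- B cells against PMs, *Chil3* ranged from -8.13 to -3.38 and *Retnlg* from -7.26 to -0.86, the latter over 14 alternatives only. Without PM replicate 3 the *Retnlg* mean was 0 FPKM in PMs and 0.0175 in CD11b- B cells. That opposite order is not among the values, since the gene was under the filter there. The 39 named differences of related genes kept their sign in 662 values and lost their call in 27. Between CD11b+ and CD11b- B cells, the 15 genes called by limma became 37 with a pseudocount of 0.1, 25 with 0.01, 2 without a filter, 31 where the mean FPKM had to reach 1, 36 with all 9 libraries, 9 with quantile normalization, 42 with edgeR, 392 with DESeq2 and 571 with edgeR without a filter, which was added after seeing the data. The related genes called went from 0 to 4 with DESeq2 and with unfiltered edgeR, the latter also added after seeing the data. Leaving out 1 library gave 3 to 40 genes called, with 3, 4 and 7 without CD11b- replicates 1, 2 and 3 and 5, 5 and 40 without CD11b+ replicates 1, 2 and 3, and 0 to 0 related genes. Against PMs it gave 4500 to 6945 (CD11b+) and 5659 to 8297 (CD11b-) genes and 29 to 35 and 30 to 35 related genes. The causes were not tested.

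Whether replicate numbers pair the samples was not settled. Deviations of CD11b+ and CD11b- libraries with the same title number correlated at 0.28, -0.02 and 0.21 over 12493 genes, so 1 of 3 pairs was not above 0.1. The numbers in the sample descriptions were shared by 2 pairs only, replicates 1 and replicates 3, which correlated at 0.28 and 0.21; the replicates 2 carry different numbers there. A replicate block by title number gave 16 genes called and 0 related genes between the B cell groups, 5854 and 33 for CD11b+ B cells against PMs, and 7125 and 36 for CD11b- B cells against PMs. A replicate block by the numbers in the sample descriptions gave 0 and 0 between the B cell groups; with this block only those 2 pairs inform the difference.

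With 3 libraries a group, no outlier test was made. Depth limits *Retnlg*, *Chil3* and *Chil1* in CD11b- B cells and *Chil1* in PMs, where levels rest on at most 7 reads a library.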
